A study of Mus musculus with 36 samples.

Results

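Expression in the nucleus accumbens (NAc) was compared with expression in the periaqueductal grey (PAG) of mice that had undergone sham surgery, in 6 libraries of each region. These 12 libraries, of 36 in the study, were chosen by the region and surgery on their labels, with no use of expression values. All mice were adult C57BL/6 males and the tissue was collected 2.5 months after the operation; no mouse in either group had a nerve injury. The other libraries of the study came from the medial prefrontal cortex (PFC) and from mice with spared nerve injury (SNI), a lesion of branches of the sciatic nerve. Per the labels' protocols, each library was made from a pool of RNA with selection of polyadenylated transcripts. The number of mice behind a library, and whether NAc and PAG came from the same mice, are not given here, so a p-value reflects only how these libraries vary, some of which may be technical.

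NAc is the ventral part of the striatum. Most of its neurons are GABAergic medium spiny neurons, which carry dopamine D1 or D2 receptors, release opioid peptides along with GABA and receive glutamatergic input from the cortex, thalamus and limbic areas. PAG surrounds the cerebral aqueduct of the midbrain and is a centre of descending pain control and defensive behaviour. Its glutamatergic and GABAergic neurons are mixed with small groups of dopamine neurons, it borders the serotonin neurons of the dorsal raphe and the oculomotor nuclei, and ciliated ependymal cells line the aqueduct. Both regions hold opioid receptors and are studied in chronic pain.

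Values are RPKM, reads per kilobase of gene and per mega (M) assigned reads, given as mean ± SD of the 6 libraries of a group. A log2 difference is NAc minus PAG on the scale of log2(RPKM + 0.5) with its standard error (SE), so that a positive value means higher in NAc; this scale understates the change of genes near 0. A gene was called where limma's adjusted p was below 0.05 and the fitted fold was at least 2. Where a mean of 2 RPKM is said to be required, genes below it were not tested. They drop out of the count of calls, and a lower count there need not mean a lost call. Over all genes tested, 6.62% were called higher in NAc and 6.77% higher in PAG, and each count of a list is to be read beside these shares. Genes were tested where their mean over both groups reached 0.5 RPKM. A gene near 0 in either region was thus tested only where the other region was high enough, which fixed its direction. In bulk tissue, fewer cells of a type and less RNA per cell cannot be told apart.

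The labelled regions were first checked against 3 marker genes. Drd2, the dopamine D2 receptor gene, had 74.8 (lowest), 92.5 (median) and 106 (highest) RPKM in NAc and 13.2, 15.03 and 16.8 in PAG. Every NAc library lay above every PAG library, and the log2 difference was 2.56 ± 0.0831 SE. Slc17a6, which encodes the vesicular glutamate transporter VGLUT2 of subcortical neurons, had 1.64 (lowest), 2.503 (median) and 3.35 (highest) RPKM in NAc and 112, 116 and 124 in PAG. The order was the opposite, with no overlap of the groups and a log2 difference of -5.36 ± 0.132 SE. Gata3, a factor of GABAergic neurons of the midbrain among others, had 3.85 (lowest), 4.07 (median) and 4.29 (highest) RPKM in PAG and at most 0.0126 RPKM in any NAc library. All 3 markers followed the labels in all 12 libraries.

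The sequences before the transcription starts of these 3 genes are shown because the genes are the markers of the compared regions. They are the 250 bases before the annotated start in RefSeq (GRCm38.p6, the build of the deposited data), written 5′ to 3′ on the strand of the gene, with copies of the GC box GGGCGG or its reverse complement in capitals. The GENCODE M21 annotation places Drd2 at chr9:49340627-49408177, Slc17a6 at chr7:51622006-51671119 and Gata3 at chr2:9857078-9890034, all protein-coding. The RefSeq start of Gata3 lies inside its gene model. The windows are chr9:49340153-49340402 for Drd2 on the plus strand, chr7:51621580-51621829 for Slc17a6 on the plus strand and chr2:9878601-9878850 for Gata3 on the minus strand.
Drd2: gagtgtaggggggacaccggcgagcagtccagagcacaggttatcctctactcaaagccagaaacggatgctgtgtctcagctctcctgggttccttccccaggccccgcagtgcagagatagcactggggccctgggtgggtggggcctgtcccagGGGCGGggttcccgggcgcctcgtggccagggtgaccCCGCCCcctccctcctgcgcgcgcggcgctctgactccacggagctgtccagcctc
Slc17a6: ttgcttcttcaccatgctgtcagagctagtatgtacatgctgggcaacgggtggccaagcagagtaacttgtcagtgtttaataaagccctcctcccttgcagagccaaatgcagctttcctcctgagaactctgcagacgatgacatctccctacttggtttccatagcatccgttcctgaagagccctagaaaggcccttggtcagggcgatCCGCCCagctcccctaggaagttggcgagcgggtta
Gata3: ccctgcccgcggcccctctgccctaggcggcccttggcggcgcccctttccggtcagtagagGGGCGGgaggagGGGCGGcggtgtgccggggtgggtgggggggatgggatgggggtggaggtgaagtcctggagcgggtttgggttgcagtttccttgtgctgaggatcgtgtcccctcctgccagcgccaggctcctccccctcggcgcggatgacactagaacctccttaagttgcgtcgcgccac
The windows of Drd2 and Gata3 held 68.8% and 70% G or C and that of Slc17a6 53.2%. The GC box was found 2 times in Drd2, 2 times in Gata3 and 1 time in Slc17a6. None of the other 3 motifs searched on both strands, the cAMP response element TGACGTCA, the core motif of zinc finger factors such as Gata3, AGATAA, and the promoter box of basal transcription TATAAA, occurred in these windows, which says only that these letters are absent there.

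The libraries held 52.9 ± 8.54 M assigned reads in NAc (38.6 to 61.5) and 37.9 ± 3.67 M assigned reads in PAG (34.3 to 44.1). NAc libraries were deeper than PAG libraries by 15.01 M reads on average (two-sided exact permutation test, p = 0.00649, of 924 assignments). The libraries also differed in genes of neighbouring tissues and in base composition, as the plot of library properties shows. Slc17a7, which loads glutamate into vesicles of cortical neurons, was listed at 9.60, 97.8, 88.3, 113, 1.59 and 139 RPKM in NAc libraries 1 to 6 and at 1.703 to 2.79 in PAG. The summed RPKM of 17 fibroblast and meningeal genes was 842 in NAc library 4 and 268 in NAc library 3, against 68.9 to 169 in the others. That of the choroid plexus genes was 799 in PAG library 27 and 16.5 to 33.1 in the others. The GC slope, which is the change of a library's log2 values per 10% of GC content relative to the mean of the groups, ran from -0.0505 to 0.184 in NAc and from -0.189 to 0.00113 in PAG; 5 of 6 NAc libraries lay above every PAG library.

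**Figure D1:**
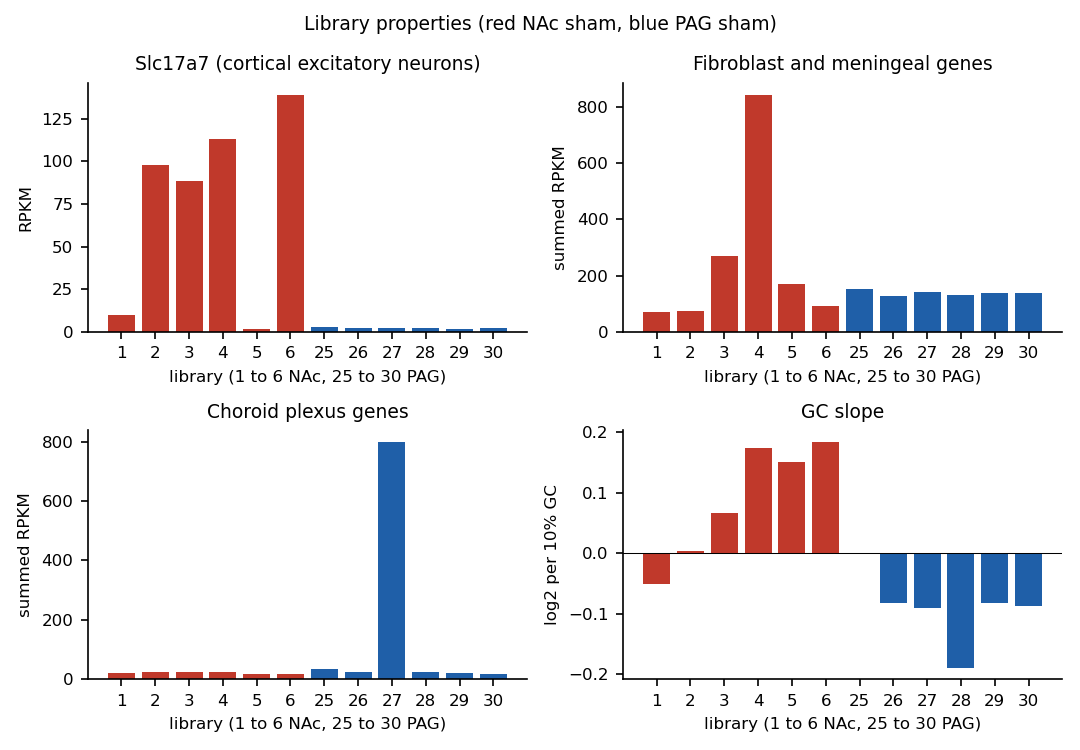
The 4 properties of the 12 sham libraries: RPKM of Slc17a7, summed RPKM of fibroblast and meningeal genes, summed RPKM of choroid plexus genes, and GC slope in log2 units per 10% GC. Each bar is 1 library (red NAc 1 to 6, blue PAG 25 to 30); Slc17a7 was over 50 RPKM in NAc libraries 2, 3, 4 and 6, and single libraries stood out for meningeal and choroid plexus genes.

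Of 15665 genes tested, 2098 (13.4%) were called, 1037 higher in NAc (6.62%) and 1061 higher in PAG (6.77%). An adjusted p below 0.05 without the fold was reached by 11614 genes (74.1%), and the 2 groups of 6 libraries did not overlap for 8817 genes (56.3%). On the scale used here, a fitted fold of at least 8 was reached by 93 genes higher in NAc and 52 higher in PAG. This scale understates the change of genes near 0, and low genes were not equally common among the calls of both directions. Where a mean of 2 RPKM was required, 825 genes were called higher in NAc and 695 higher in PAG. Whether the balance at a fold of 8 holds on another scale was not tested. The genes called higher in NAc took 13.7 ± 0.917% of all assigned reads in NAc and 3.70 ± 0.0759% in PAG (SD, n = 6), and those called higher in PAG took 8.37 ± 0.0370% in PAG and 2.88 ± 0.241% in NAc. In 714 of the 1037 genes higher in NAc (68.9%), the mean in PFC sham libraries was within 2-fold of the NAc mean or above it; this held for 276 of the 1061 genes higher in PAG (26.01%) against the PAG mean. The median GC content was 52.8% for the genes higher in NAc, 49.8% for those higher in PAG and 49.6% for all genes tested, in the same direction as the GC slopes of the libraries. With a loess trend on GC removed from each library, 941 genes were called higher in NAc and 1094 higher in PAG.

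**Figure D2:**
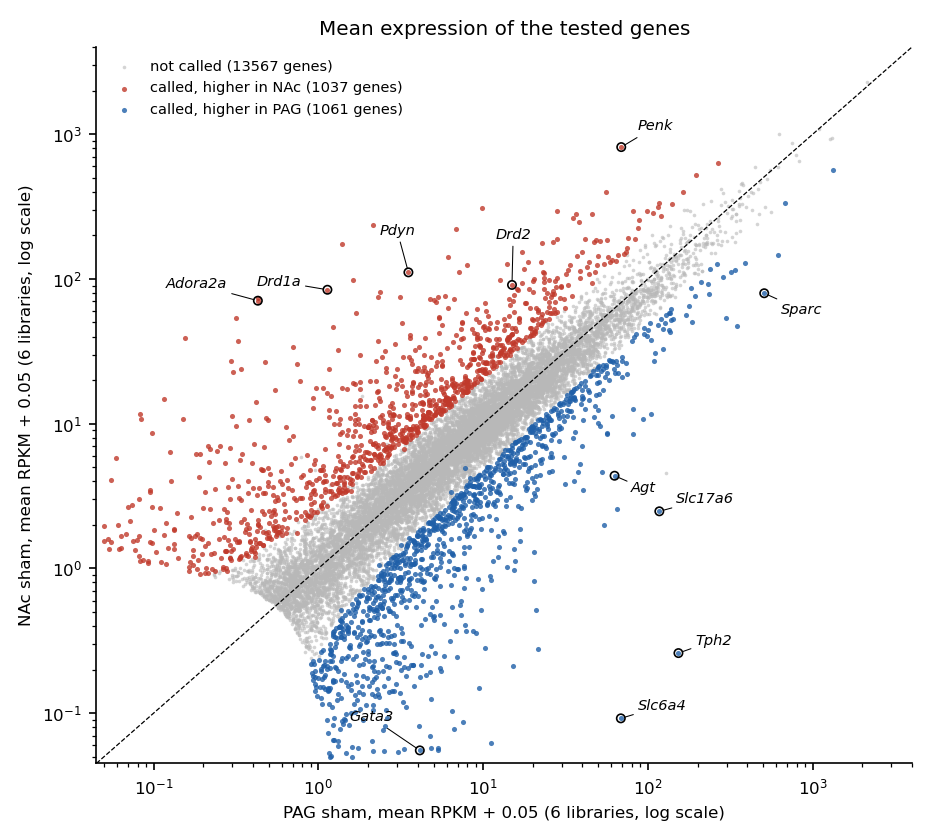
Mean RPKM + 0.05 of each tested gene in PAG sham (x axis) and NAc sham (y axis), both on a log scale; each point is a gene and the dashed line marks equal values. The 1037 genes called higher in NAc are red, the 1061 called higher in PAG are blue, and circled genes are described in the text.

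Among the 15 genes with the largest log2 difference toward NAc were Ddn, Crym, Adora2a, Kcnj4, Ankrd63, Drd1a, Gabrd, Ptk2b, Krt9, Rin1, Ppp1r1b, Gng7, Kcnh3 and Chrm4, with log2 differences from 4.89 to 6.50. Some of them were also high in PFC, where levels are given as a description. Ddn (dendrin, a postsynaptic protein) had 234 ± 23.7 RPKM in NAc and 2.095 ± 0.423 in PAG, and its mean in PFC sham libraries was 232 RPKM. Ptk2b, a calcium-activated tyrosine kinase, had 97.8 ± 5.43 RPKM in NAc and 1.56 ± 0.145 in PAG and 67.2 RPKM in PFC. Ankrd63 had 4.72 RPKM in PFC, against 38.7 ± 4.05 in NAc. By the difference of mean RPKM, Penk, Ndrg4, Pde1b, Arf3, Gng7, Camk2a, Fbxl16, Hpca, Itm2c and Ddn led toward NAc.

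Toward PAG the largest log2 difference was that of Tph2, the rate-limiting enzyme of serotonin synthesis in the brain, with 153 ± 24.1 RPKM in PAG and 0.2101 ± 0.0556 in NAc (log2 difference -7.74 ± 0.0922 SE). The next 14 were Slc6a4, Slc17a6, Glra1, Tmem212, Ebf3, Shox2, Slc18a2, Sncg, Ccdc153, Gchfr, Adcyap1, Agt, Slc6a5 and Rln3, with log2 differences from -3.60 to -6.97. They span serotonin neurons (Slc6a4), glycine signalling (Glra1, Slc6a5), motile cilia (Tmem212, Ccdc153), peptides (Adcyap1, Rln3) and the angiotensin precursor Agt, an astrocyte product. By the difference of mean RPKM, Sparcl1, Nap1l5, Sparc, Ndrg2 and Resp18 led toward PAG. Sparcl1 (hevin), an astrocyte-secreted matricellular protein, had 1324 ± 62.7 RPKM in PAG and 568 ± 27.2 in NAc, and its relative Sparc 507 ± 12.9 RPKM in PAG and 79.6 ± 17.8 in NAc.

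**Figure D3:**
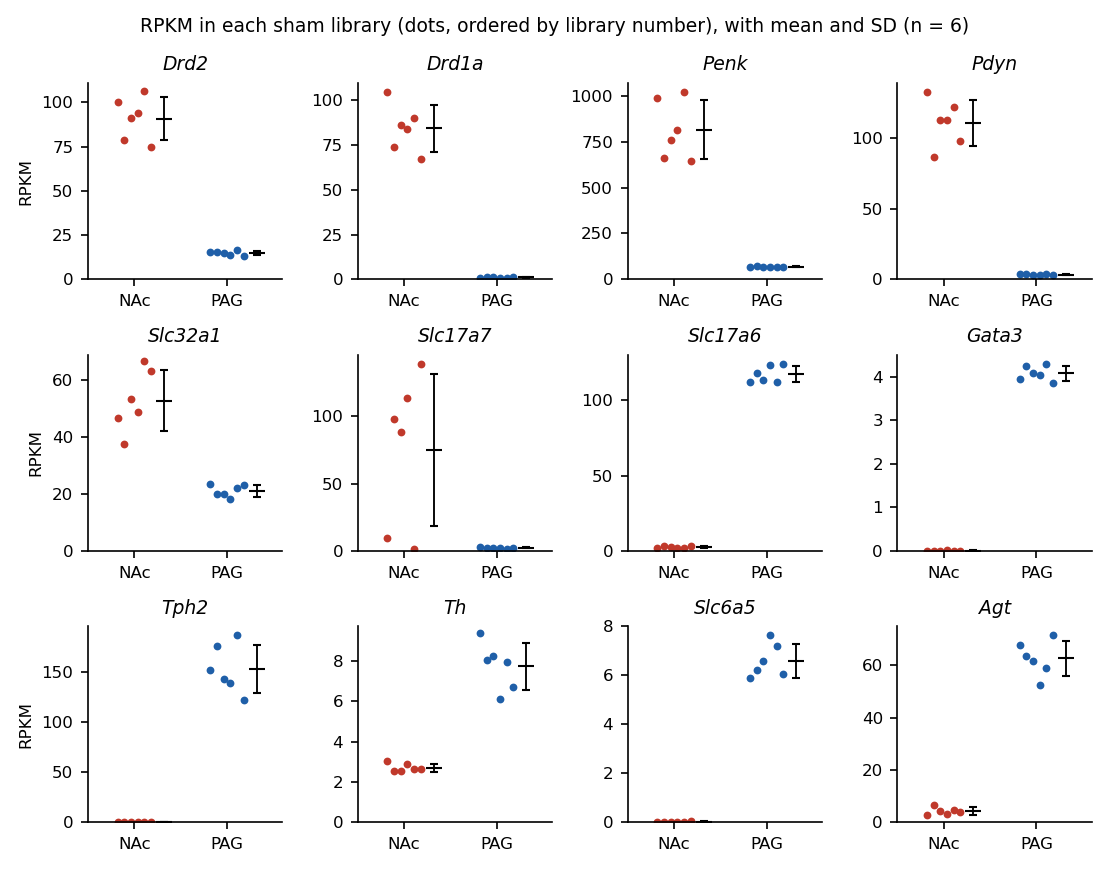
RPKM of 12 genes in each sham library; dots are libraries in the order of their numbers (red NAc 1 to 6, blue PAG 25 to 30) and the bar beside them is the mean ± SD (n = 6). Drd2, Drd1a, Penk, Pdyn and Slc32a1 lie higher in every NAc library and Slc17a6, Gata3, Tph2, Th, Slc6a5 and Agt in every PAG library, while Slc17a7 overlaps because NAc library 5 lies at 1.59 RPKM.

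Of 34 tested genes of medium spiny neurons, 32 were higher in NAc, none was higher in PAG, and the median log2 difference was 3.04, against -0.031 over all genes tested. Drd1a, the D1 receptor of the direct pathway, had 66.8 (lowest), 84.96 (median) and 104 (highest) RPKM in NAc and 0.847, 1.07 and 1.38 in PAG (log2 difference 5.73 ± 0.0995 SE). Adora2a, an adenosine receptor of the indirect pathway, had 45.7 (lowest), 68.5 (median) and 95.9 (highest) RPKM in NAc and 0.275, 0.384 and 0.495 in PAG (log2 difference 6.31 ± 0.139 SE). Both receptors were low in each PAG library and the groups did not overlap. Ppp1r1b, which encodes the phosphatase regulator DARPP-32, had 222 ± 32.2 RPKM in NAc and 6.81 ± 0.779 in PAG, and Crym, a thyroid hormone binding protein, had 74.1 ± 8.27 RPKM in NAc and 0.378 ± 0.0826 in PAG. The 2 members that were not called, Sema3e and Eya1, had log2 differences of 0.39 and 0.73. For each of the 34, every NAc library lay above every PAG library, against 56.3% of all genes tested whose groups did not overlap in either direction.

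PAG held more Drd2 than Drd1a transcripts, at 14.9 ± 1.22 against 1.08 ± 0.174 RPKM. Drd3, the D3 receptor, had 10.9 ± 1.95 RPKM in NAc and 0.434 ± 0.0646 in PAG (log2 difference 3.60 ± 0.0989 SE). Drd5 had 0.963 ± 0.134 RPKM in NAc and 1.37 ± 0.115 in PAG, a difference under 2-fold toward PAG, and Drd4 was at most 0.0599 RPKM in any library. Of the enzymes that break down monoamines, Maob had 40.1 ± 2.905 RPKM in PAG and 10.6 ± 0.457 in NAc and Maoa 23.1 ± 1.02 RPKM in PAG and 10.6 ± 0.807 in NAc, and both were called higher in PAG.

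Of 25 tested forebrain and striatal transcription factors, 20 were higher in NAc and 2 were higher in PAG, with a median log2 difference of 2.29. Dlx6 and Dlx5, homeobox factors of forebrain GABAergic neurons, had 11.7 ± 1.51 and 5.76 ± 1.11 RPKM in NAc and at most 0.0564 and 0.0377 in any PAG library. Rarb, a retinoic acid receptor of striatum, had 49.4 ± 7.89 RPKM in NAc and 3.15 ± 0.383 in PAG, and Bcl11b, a factor of medium spiny neuron maturation, had 29.5 ± 2.45 RPKM in NAc and 1.75 ± 0.132 in PAG. The 2 exceptions were Npas1, with 3.77 ± 0.607 RPKM in PAG and 1.03 ± 0.334 in NAc, and Ebf1, with 3.31 ± 0.132 RPKM in PAG and 1.001 ± 0.0744 in NAc. Etv1 and Zic1 were not called, and the values of both regions overlapped for each.

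Of 51 midbrain and hindbrain transcription factors with values, 32 passed the filter, and 27 of these were higher in PAG and none in NAc. The median log2 difference of the tested factors was -1.98. Factors near 0 in NAc were tested only where PAG was high enough, so their direction was fixed by the filter and their count is a description. Ebf3, a helix-loop-helix factor, had 15.03 ± 0.719 RPKM in PAG and 0.161 ± 0.0303 in NAc, and Pou4f1, a POU homeobox factor, 5.25 ± 0.284 RPKM in PAG and 0.00742 ± 0.00758 in NAc. Shox2, a homeobox factor outside the list, had 11.1 ± 1.22 RPKM in PAG and 0.0119 ± 0.00789 in NAc. All 3 were higher in each PAG library than in any NAc library. Tcf7l2, a Wnt effector of thalamic and midbrain neurons, had 15.6 ± 2.75 RPKM in PAG and 1.08 ± 0.235 in NAc, and Irx2, an Iroquois homeobox factor, 4.68 ± 0.2098 RPKM in PAG and 0.0193 ± 0.0135 in NAc. Satb1 and Nr4a2 were not called; Nr4a2, a factor of dopamine neurons that is also made in other neurons, spread from 0.3404 to 4.35 RPKM over the NAc libraries and had 2.36 ± 0.3398 in PAG. Without the 4 NAc libraries over 50 RPKM of Slc17a7 both were called higher in PAG, at log2 differences of -1.19 and -1.62. Many of these factors had low levels, and 10 were called when a mean of 2 RPKM was required for testing. None of the 20 hindbrain Hox genes in the table passed the filter, and the highest value in any of the 12 libraries was 0.110 RPKM, for Hoxd1 in PAG.

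Genes of serotonin neurons were among the most different, with 13 of 17 tested genes higher in PAG, none higher in NAc and a median log2 difference of -2.54. Tph2 had 122 (lowest), 148 (median) and 186 (highest) RPKM in PAG and at most 0.321 in NAc. Slc6a4, the serotonin transporter, had 51.4 (lowest), 67.7 (median) and 82.9 (highest) RPKM in PAG and at most 0.0487 in NAc (log2 difference -6.97 ± 0.0959 SE). Both transcripts were high in each of the 6 PAG libraries and close to 0 in each NAc library. Fev, the transcription factor of serotonin neuron identity, had 5.26 ± 0.991 RPKM in PAG and at most 0.0206 in any NAc library. Gch1, which makes the hydroxylase cofactor tetrahydrobiopterin, had 7.81 ± 1.17 RPKM in PAG and 0.3204 ± 0.0596 in NAc, and its regulator Gchfr, outside the list, 10.2 ± 2.45 RPKM in PAG and 0.2302 ± 0.127 in NAc. Qdpr and Pts, 2 more enzymes of that cofactor, were not called, with log2 differences of -0.85 and -0.43.

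Of 17 tested dopamine neuron genes, 14 were higher in PAG and none in NAc (median log2 difference -2.22), and 7 were when a mean of 2 RPKM was required for testing; 5 of the 17 are also in the serotonin list. Slc18a2, the vesicular monoamine transporter, had 54.4 ± 6.43 RPKM in PAG and 1.95 ± 0.263 in NAc and Ddc, aromatic amino acid decarboxylase, 40.3 ± 5.601 RPKM in PAG and 3.46 ± 0.373 in NAc. Th, tyrosine hydroxylase, which serotonin neurons lack, had 6.098 (lowest), 7.99 (median) and 9.38 (highest) RPKM in PAG and 2.71 ± 0.2001 in NAc (log2 difference -1.35 ± 0.0856 SE). The dopamine transporter Slc6a3, named here after its values were seen, had 1.98 ± 0.3101 RPKM in PAG and 0.1804 ± 0.05797 in NAc. On the length-scaled RPKM, Th and Slc6a3 stood below Tph2 and Slc6a4 in every PAG library. Aldh1a1, a retinaldehyde dehydrogenase of some dopamine neurons, had 80.9 ± 10.8 RPKM in PAG and 8.43 ± 1.85 in NAc and Sncg, gamma-synuclein, 65.1 ± 13.96 RPKM in PAG and 2.53 ± 0.829 in NAc. Gal, the galanin precursor found in noradrenaline neurons among others, had 1.22 ± 0.332 RPKM in PAG and 0.288 ± 0.117 in NAc.

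Cholinergic genes were divided, with 4 of 12 tested genes higher in NAc and 3 higher in PAG (1 in PAG when a mean of 2 RPKM was required). Isl1 and Lhx8, transcription factors of forebrain cholinergic neurons (Isl1 also of direct pathway neurons), had 7.22 ± 0.933 RPKM in NAc and 0.354 ± 0.138 in PAG and 4.02 ± 1.11 RPKM in NAc and 0.00545 ± 0.00599 in PAG. Prph, the intermediate filament peripherin of motor and sensory neurons, had 4.09 ± 1.16 RPKM in PAG and 0.128 ± 0.0536 in NAc, and Calca, the CGRP precursor, 2.05 ± 0.535 RPKM in PAG and 0.296 ± 0.141 in NAc. The choline transporter Slc5a7 was not called, and its range in PAG (6.63 to 20.04 RPKM) enclosed that in NAc (9.17 to 13.2). Chat, choline acetyltransferase, named here after its values were seen, had 8.235 ± 1.18 RPKM in NAc and 4.17 ± 1.46 in PAG. Its groups did not overlap, but its log2 difference of 0.955 was not called. It was called higher in NAc under some alternatives, among them voom and a pseudocount of 0.1. Ache, acetylcholinesterase, had 25.3 ± 1.58 RPKM in PAG and 13.5 ± 1.67 in NAc, under 2-fold higher in PAG, and was called higher in PAG with the GC trend removed (log2 difference -1.14) and with the GC slope as a covariate (-1.11). Among 12 muscarinic and nicotinic receptor genes, 2 were higher in NAc and 6 in PAG (3 in PAG when a mean of 2 RPKM was required). Chrna6, Chrnb3 and Chrna3 lay below that mean and were not tested there. Both NAc genes were muscarinic: Chrm1 had 23.8 ± 1.41 RPKM in NAc and 1.11 ± 0.271 in PAG and Chrm4 33.9 ± 4.85 RPKM in NAc and 0.652 ± 0.0862 in PAG. The muscarinic Chrm2 had 10.6 ± 0.964 RPKM in PAG and 2.71 ± 0.8697 in NAc, the muscarinic Chrm3 had a log2 difference of -1.55, and the nicotinic subunits Chrna4, Chrna6, Chrnb3 and Chrna3 were called higher in PAG, with log2 differences of -1.92, -2.22, -1.88 and -1.60.

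Vesicular transporter genes differed in both directions, and of 19 tested genes of transmitter transport and synthesis 2 were higher in NAc and 7 in PAG. Slc32a1, which loads GABA and glycine into vesicles, had 37.7 (lowest), 51.03 (median) and 66.6 (highest) RPKM in NAc and 18.3, 21.04 and 23.5 in PAG (log2 difference 1.28 ± 0.119 SE). Gad2, a GABA-synthesising enzyme, had 172 ± 19.4 RPKM in NAc and 112 ± 4.47 in PAG, a log2 difference of 0.62 that did not reach a fold of 2. Both GABAergic genes were detected in each library of both regions. Slc17a7 was called higher in NAc, with a log2 difference of 3.79 ± 0.8802 SE and an adjusted p of 0.00144. NAc library 5 had less Slc17a7 than every PAG library, so the groups overlapped. With the GC slope of the library as a covariate, neither Slc32a1 nor Slc17a7 was called (log2 differences 0.92 and 3.28). Slc32a1 was also not called with the GC trend removed (0.872) or in the SNI libraries (0.967). Slc17a7 was not called without the NAc libraries over 50 RPKM of it (0.753). Slc6a11, the GABA transporter GAT3 of astrocytes, had 296 ± 18.5 RPKM in PAG and 53.4 ± 11.8 in NAc, and Slc1a2, the main astrocyte glutamate transporter, had 277 ± 12.7 RPKM in NAc and 191 ± 10.2 in PAG and was not called.

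Glycine receptors mediate fast inhibition in the brainstem and spinal cord, and all 4 tested alpha subunit genes were higher in PAG. Glra1, the alpha1 receptor subunit, had 21.5 ± 1.098 RPKM in PAG and 0.227 ± 0.166 in NAc (log2 difference -4.95 ± 0.118 SE), and Glra2, Glra3 and Glra4 had log2 differences of -1.15, -2.50 and -1.05. Slc6a5, the glycine transporter of glycinergic neurons, had 6.59 ± 0.69 RPKM in PAG and at most 0.0537 in any NAc library. Glrb, the beta subunit, had 108 ± 3.81 RPKM in PAG and 58.2 ± 2.61 in NAc and did not reach a fold of 2. Of the 7 tested genes in the list, 4 were higher in PAG and none was higher in NAc.

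**Figure D4:**
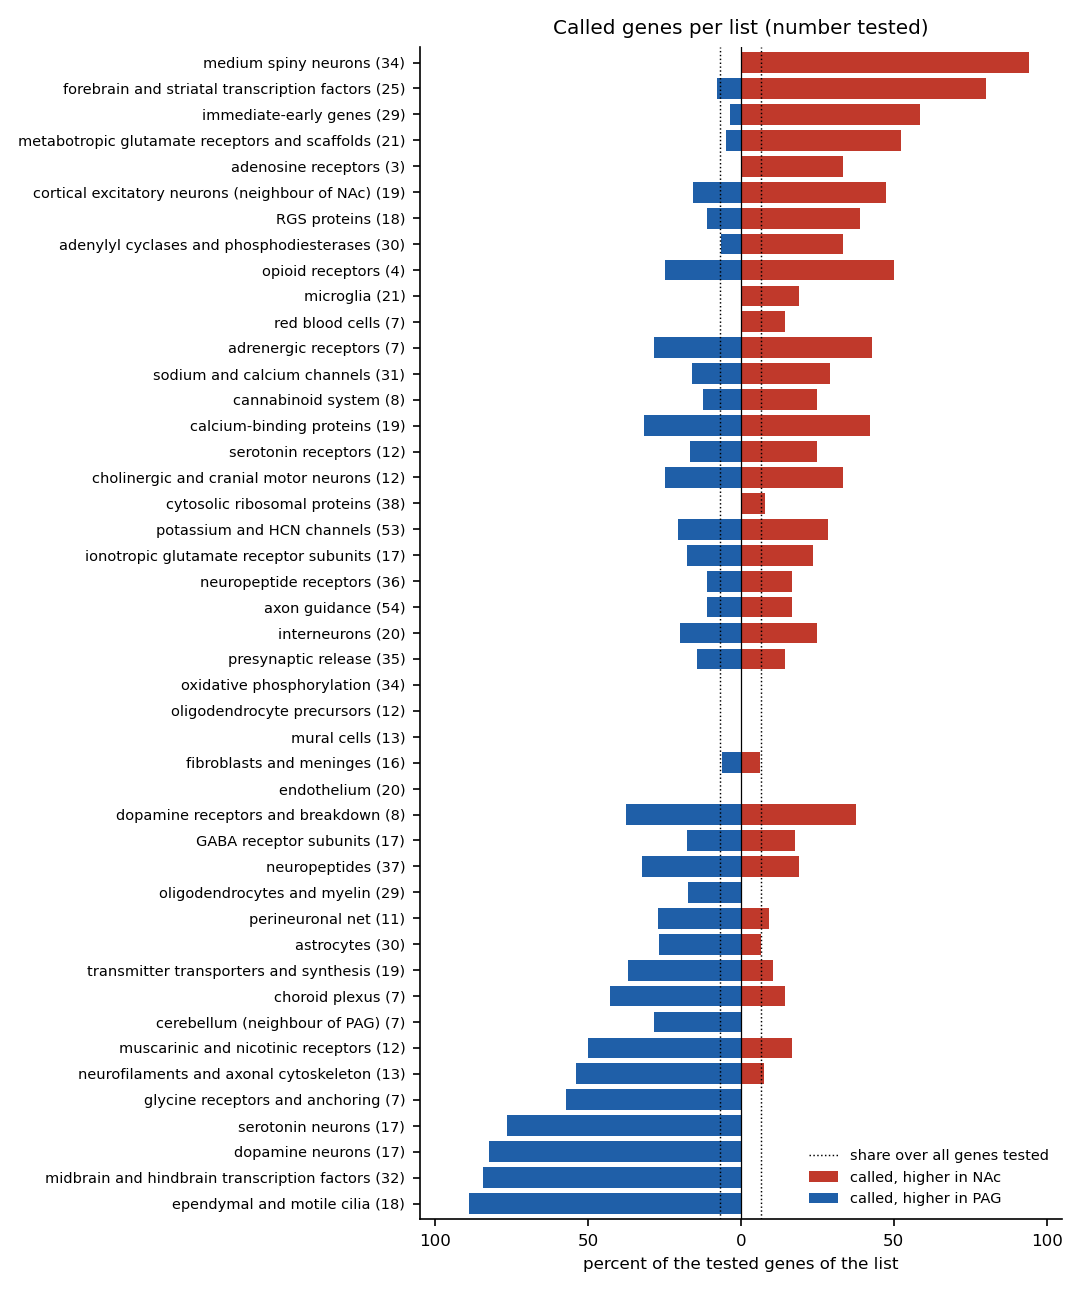
Percent of the tested genes of each list that were called higher in NAc (red, to the right) or higher in PAG (blue, to the left), with the number tested in brackets and the shares over all genes tested as dotted lines (6.62% and 6.77%). Lists with at least 3 tested genes are shown, ordered by the balance of both shares, from medium spiny neurons (32 of 34 higher in NAc) to ependymal and motile cilia genes (16 of 18 higher in PAG).

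Neuropeptide genes differed in both directions, with 7 of 37 tested genes higher in NAc and 12 higher in PAG; the count in PAG was 6 when a mean of 2 RPKM was required. The opioid precursors Penk (enkephalins) and Pdyn (dynorphins) were high in NAc. Penk had 642 (lowest), 786 (median) and 1021 (highest) RPKM in NAc and 65.7, 68.3 and 74.3 in PAG (log2 difference 3.53 ± 0.105 SE). Pdyn had 86.9 (lowest), 113 (median) and 133 (highest) RPKM in NAc and 3.05, 3.44 and 3.95 in PAG (log2 difference 4.80 ± 0.0922 SE). Penk lay above Pdyn in both regions, and neither gene had overlapping groups. Pnoc, the precursor of nociceptin, went the other way, with 4.61 ± 0.859 RPKM in PAG and 0.956 ± 0.288 in NAc (log2 difference -1.82 ± 0.142 SE). Npy had 58.03 ± 7.31 RPKM in NAc and 7.85 ± 1.47 in PAG, Tac1, the substance P precursor, 80.9 ± 11.7 RPKM in NAc and 20.05 ± 0.908 in PAG, and Tac2, the neurokinin B precursor, 6.65 ± 0.747 RPKM in NAc and 1.04 ± 0.315 in PAG. Vip had 35.7 ± 2.85 RPKM in PAG and 3.97 ± 2.14 in NAc, Adcyap1, the PACAP precursor, 20.2 ± 0.639 RPKM in PAG and 1.25 ± 1.03 in NAc, and Rln3, relaxin-3 of the nucleus incertus and PAG, 6.42 ± 1.92 RPKM in PAG and 0.0541 ± 0.0509 in NAc. Grp, the gastrin-releasing peptide gene, had 2.41 ± 0.193 RPKM in PAG and 0.147 ± 0.0655 in NAc. The granins Scg2 and Chgb, proteins of dense core vesicles, were not called, at log2 differences of -0.51 and -0.46.

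All 4 opioid receptor genes were tested. Oprd1 (delta) had 5.64 (lowest), 6.31 (median) and 7.21 (highest) RPKM in NAc and 1.34, 1.68 and 1.87 in PAG (log2 difference 1.70 ± 0.0723 SE), and Oprk1 (kappa) had 8.67 (lowest), 10.1 (median) and 12.05 (highest) RPKM in NAc and 3.85, 4.13 and 4.27 in PAG (log2 difference 1.20 ± 0.0682 SE). Oprl1, the nociceptin receptor, had 14.2 (lowest), 14.6 (median) and 17.3 (highest) RPKM in NAc and 38.6, 40.7 and 41.9 in PAG (log2 difference -1.40 ± 0.0452 SE). The delta and kappa receptor genes were thus higher in every NAc library, and the nociceptin receptor gene in every PAG library, as was its ligand precursor Pnoc. Oprm1 (mu) had 1.17 (lowest), 1.74 (median) and 2.08 (highest) RPKM in NAc and 1.76, 1.96 and 2.14 in PAG. The 2 groups overlapped for Oprm1, and the 95% interval of its log2 difference ran from -0.38 to 0.02 (adjusted p = 0.0892).

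Of 36 tested neuropeptide receptor genes, 6 were higher in NAc (16.7%, against 6.62% of all genes tested) and 4 higher in PAG (11.1%, against 6.77%). Vipr1, a receptor for VIP and PACAP, had 5.54 ± 0.319 RPKM in NAc and 0.284 ± 0.04298 in PAG, Mchr1, the receptor for melanin-concentrating hormone, 23.2 ± 3.198 RPKM in NAc and 3.83 ± 0.337 in PAG, and Sstr4, a somatostatin receptor, 6.35 ± 0.656 RPKM in NAc and 1.86 ± 0.101 in PAG. Hcrtr1, an orexin receptor, had 6.28 ± 0.656 RPKM in PAG and 0.265 ± 0.127 in NAc (log2 difference -3.16 ± 0.108 SE), Tacr3, the neurokinin B receptor, 6.71 ± 0.639 RPKM in PAG and 3.01 ± 0.556 in NAc, and Rxfp3, the relaxin-3 receptor, 1.55 ± 0.122 RPKM in PAG and 0.514 ± 0.163 in NAc. Calcr, the calcitonin receptor gene, had 5.03 ± 0.4396 RPKM in PAG and 2.17 ± 0.942 in NAc. The count in PAG was 1 without NAc library 4 and 1 with a pseudocount of 1, where Calcr, Tacr3 and Rxfp3 were not called, and 7 with voom. The call of Nmbr, a bombesin receptor, was lost without the 4 NAc libraries rich in Slc17a7, with a log2 difference of 1.47 over all and 0.08 without them.

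Among 12 serotonin receptor genes, 3 were higher in NAc (Htr6 1.56, Htr2a 1.10 and Htr1f 1.05 on the log2 scale) and 2 were higher in PAG. Those were Htr7, with 9.48 ± 0.559 RPKM in PAG and 2.63 ± 0.423 in NAc, and Htr1a, the autoreceptor of serotonin neurons, with 9.43 ± 0.764 RPKM in PAG and 3.61 ± 0.848 in NAc. The most abundant, Htr2c, had 31.5 ± 2.89 RPKM in PAG and 22.2 ± 2.31 in NAc and was not called. Without the 4 Slc17a7-rich NAc libraries the count in NAc was 6, and it was 1 when a mean of 2 RPKM was required. Among 7 adrenergic receptor genes, with log2 differences in brackets, Adra2c (2.34), Adra2b (1.90) and Adrb1 (1.03) were higher in NAc and Adra1b (-1.95) and Adra2a (-1.22) in PAG. Adrb1 lay near the threshold and was not called with the GC trend removed (0.78). Adra1a was not called, with a 95% interval of the log2 difference from -0.26 to 0.07.

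In the endocannabinoid system, 2 of 8 tested genes were higher in NAc and 1 was higher in PAG. Mgll, which breaks down 2-arachidonoylglycerol, had 42.3 ± 4.21 RPKM in NAc and 8.78 ± 0.5697 in PAG, and Dagla, which makes it, 11.4 ± 2.15 RPKM in NAc and 4.9997 ± 0.607 in PAG. Napepld, which takes part in anandamide synthesis, had 4.94 ± 0.135 RPKM in PAG and 2.02 ± 0.308 in NAc. Cnr1, the CB1 receptor gene, had 24.9 ± 0.9746 RPKM in PAG and 20.3 ± 5.11 in NAc and overlapped between groups. Dagla was not called with the GC trend removed (log2 difference 0.84). Its call was also lost with the GC slope as a covariate and without the NAc libraries over 50 RPKM of Slc17a7. Of the adenosine receptors, Adora2a was called and Adora1 (28.6 ± 2.83 RPKM in NAc and 24.2 ± 1.47 in PAG) and Adora2b (2.47 ± 0.219 RPKM in PAG and 1.14 ± 0.114 in NAc) were not; Adora2b was called higher in PAG with a pseudocount of 0.1 and with voom.

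Of 17 tested GABA receptor subunit genes, 3 were higher in NAc and 3 in PAG; with the GC trend removed, 5 were higher in NAc. Gabrd, the delta subunit of extrasynaptic receptors, had 37.004 ± 4.35 RPKM in NAc and 0.277 ± 0.1199 in PAG (log2 difference 5.599 ± 0.1003 SE). Gabra4, a frequent partner of delta in the forebrain, had 45.2 ± 4.56 RPKM in NAc and 7.31 ± 0.512 in PAG, and Gabra2 26.6 ± 2.52 RPKM in NAc and 12.5 ± 0.805 in PAG. Gabrq (theta) had 13.99 ± 0.759 RPKM in PAG and 0.968 ± 0.569 in NAc and Gabre (epsilon) 1.74 ± 0.147 RPKM in PAG and 0.252 ± 0.105 in NAc. Gabbr1, a subunit of the metabotropic receptor, had 127 ± 5.72 RPKM in NAc and 123 ± 2.91 in PAG, with a 95% interval of the log2 difference from -0.02 to 0.12.

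Of 17 tested ionotropic glutamate receptor subunits, 4 were higher in NAc and 3 in PAG. Grin2b, an NMDA receptor subunit, had 31.4 ± 3.05 RPKM in NAc and 8.601 ± 0.457 in PAG, and Gria2, the AMPA receptor subunit that limits calcium entry, 147 ± 7.69 RPKM in NAc and 65.6 ± 3.796 in PAG. Grik5 and Grik2, kainate receptor subunits, had log2 differences of 1.42 and 1.09. Grin2d had 7.01 ± 0.4902 RPKM in PAG and 2.25 ± 0.422 in NAc, Gria4 39.9 ± 1.81 RPKM in PAG and 14.8 ± 1.504 in NAc and Grik1 7.81 ± 0.237 RPKM in PAG and 3.38 ± 0.701 in NAc. Of 21 tested genes of metabotropic receptors and postsynaptic scaffolds, 11 were higher in NAc and 1 in PAG. Homer1 had 18.6 ± 1.91 RPKM in NAc and 2.97 ± 0.112 in PAG, Shank3 19.1 ± 3.12 RPKM in NAc and 3.72 ± 0.378 in PAG, Dlgap2 14.2 ± 1.29 RPKM in NAc and 2.32 ± 0.2102 in PAG and Dlgap3 29.8 ± 8.93 RPKM in NAc and 4.31 ± 0.9104 in PAG. The exception was Grm8, a presynaptic receptor, with 5.09 ± 0.207 RPKM in PAG and 0.835 ± 0.268 in NAc. Grm5, a postsynaptic receptor, had 62.6 ± 5.502 RPKM in NAc and 20.9 ± 1.07 in PAG.

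Potassium and HCN channel genes were called in both directions, 15 of 53 tested genes higher in NAc and 11 in PAG. Kcnj4, an inward rectifier, had 53.7 ± 11.5 RPKM in NAc and 0.267 ± 0.0762 in PAG, and Kcnip2, a subunit of A-type channels, 75.3 ± 11.5 RPKM in NAc and 3.09 ± 0.299 in PAG. Kcnh3, Kcnv1 and Kcnh4 followed with log2 differences of 4.91, 3.48 and 3.27. The Kv3 gene Kcnc4 had 35.02 ± 2.56 RPKM in PAG and 7.86 ± 3.17 in NAc, the leak channel Kcnk9 had 49.5 ± 3.46 RPKM in PAG and 10.02 ± 2.14 in NAc, and Kcnj10, the Kir4.1 channel of astrocytes, 134 ± 4.83 RPKM in PAG and 44.5 ± 7.74 in NAc. Its partner Kcnj16 had 17.6 ± 0.965 RPKM in PAG and 5.84 ± 0.799 in NAc. Hcn2 had 43.4 ± 2.94 RPKM in PAG and 28.2 ± 4.21 in NAc and was not called, and its log2 difference moved from -0.62 to -1.20 with the GC trend removed, which would be called.

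Of 31 sodium and calcium channel genes, 9 were higher in NAc and 5 in PAG (3 in PAG with the GC trend removed or a pseudocount of 1). Scn4b, a sodium channel beta subunit of striatal neurons, had 189 ± 29.5 RPKM in NAc and 41.3 ± 5.52 in PAG, and Cacna2d3, an auxiliary calcium channel subunit of the family of gabapentin targets, 84.5 ± 10.5 RPKM in NAc and 15.96 ± 0.8002 in PAG. Scn1a had 48.4 ± 2.96 RPKM in PAG and 15.7 ± 2.26 in NAc, Scn9a, the Nav1.7 channel known from pain genetics, 4.68 ± 0.395 RPKM in PAG and 2.01 ± 0.385 in NAc, and Cacna1g, a T-type channel, 9.03 ± 0.629 RPKM in PAG and 3.63 ± 1.22 in NAc. The T-type gene Cacna1h went the other way, with 8.81 ± 2.01 RPKM in NAc and 2.79 ± 0.205 in PAG. Of 30 tested cyclic nucleotide enzyme genes, 10 were higher in NAc and 2 in PAG. Pde10a had 112 ± 17.95 RPKM in NAc and 7.07 ± 0.271 in PAG, Pde1b 399.7 ± 52.3 RPKM in NAc and 55.8 ± 1.301 in PAG and Adcy5, the main striatal adenylyl cyclase, 178 ± 26.6 RPKM in NAc and 22.6 ± 1.302 in PAG. Adcy7 and Adcy8 were higher in PAG, at log2 differences of -2.15 and -1.97. Of 18 RGS genes, which shorten G protein signals, 7 were higher in NAc, led by Rgs14 (26.7 ± 4.602 RPKM in NAc and 0.426 ± 0.08696 in PAG) and Rgs9 (71.9 ± 9.98 RPKM in NAc and 4.99 ± 0.271 in PAG), and 2 were higher in PAG, Rgs22 and Rgs6, at log2 differences of -2.34 and -1.44.

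Of 35 tested presynaptic genes, 5 were higher in NAc (14.3%, against 6.62% of all genes tested) and 5 in PAG (14.3%, against 6.77%). Vamp1 had 93.1 ± 5.51 RPKM in PAG and 10.8 ± 1.94 in NAc and Syt2, the fast calcium sensor of hindbrain and midbrain synapses, 56.6 ± 5.36 RPKM in PAG and 8.44 ± 1.91 in NAc. Cplx2, a complexin, had 336 ± 37.3 RPKM in NAc and 116 ± 4.69 in PAG and Syt6 27.9 ± 3.201 RPKM in NAc and 8.81 ± 0.386 in PAG. Snap25, a gene of most synapses, was not called, at a log2 difference of -0.45. Of 13 tested neurofilament and axonal genes, 7 were higher in PAG and 1 in NAc. Nefh had 81.6 ± 14.9 RPKM in PAG and 12.5 ± 2.23 in NAc and Nefm 109.9 ± 21.9 RPKM in PAG and 30.9 ± 6.901 in NAc. Among calcium-binding proteins 8 of 19 were higher in NAc and 6 in PAG. Camk2a, a kinase of glutamatergic synapses that does not itself bind calcium, had 296 ± 18.4 RPKM in NAc and 28.01 ± 2.19 in PAG. Hpca, hippocalcin, had 281 ± 42.1 RPKM in NAc and 45.9 ± 2.32 in PAG. Calb2 (calretinin) had 104 ± 6.13 RPKM in PAG and 11.7 ± 3.08 in NAc and Pvalb (parvalbumin) 56.2 ± 12.6 RPKM in PAG and 8.52 ± 2.19 in NAc.

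Interneuron genes were called 5 times in NAc and 4 times in PAG, of 20 tested. Lhx6, a factor of forebrain interneurons, had 6.28 ± 1.66 RPKM in NAc and 0.0755 ± 0.0216 in PAG, and Sst 130.2 ± 26.2 RPKM in NAc and 43.6 ± 4.298 in PAG. Of 11 perineuronal net genes, Ncan was higher in NAc (36.3 ± 1.65 RPKM in NAc and 14.2 ± 0.576 in PAG) and Hapln4 (36.01 ± 1.66 RPKM in PAG and 8.68 ± 2.36 in NAc), Acan (1.64 ± 0.167 RPKM in PAG and 0.4797 ± 0.122 in NAc) and Hapln2 (9.18 ± 1.03 RPKM in PAG and 4.03 ± 0.737 in NAc) in PAG. Of 54 axon guidance genes, 9 were higher in NAc (16.7%, against 6.62% of all genes tested) and 6 in PAG (11.1%, against 6.77%); with a pseudocount of 1 the count in PAG was 2. Efnb2 had 32.5 ± 3.04 RPKM in NAc and 3.82 ± 0.156 in PAG and Plxnd1, a semaphorin receptor of striatal neurons, 10.8 ± 2.33 RPKM in NAc and 1.31 ± 0.123 in PAG. Sema5a had 13.4 ± 0.638 RPKM in PAG and 4.86 ± 0.942 in NAc and Unc5d, a netrin receptor, 12.5 ± 0.511 RPKM in PAG and 5.63 ± 1.21 in NAc.

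Cortical excitatory neuron genes, a list of the tissue next to NAc, were called 9 times in NAc and 3 times in PAG of 19 tested; without the 4 Slc17a7-rich libraries the counts were 6 and 5. Tbr1, a factor of deep-layer cortical neurons, spread from 0.363 to 7.46 RPKM in NAc and its log2 difference of 2.47 was 0.66 without these libraries. Mef2c (35.4 ± 4.24 RPKM in NAc and 2.86 ± 0.212 in PAG) and Foxp2 (10.7 ± 1.64 RPKM in NAc and 2.76 ± 0.159 in PAG) were called with and without them, at log2 differences of 3.30 and 2.01 without; both are also made in striatum. Nrn1, a neuritin gene, had 51.2 ± 2.64 RPKM in PAG and 9.64 ± 7.08 in NAc, and its log2 difference was -2.84 over all libraries and -4.73 without the Slc17a7-rich ones. Without these libraries 2271 genes were called in all. Of the 7 tested cerebellar genes, neighbours of PAG, 2 were higher in PAG and none in NAc. Ppp1r17, a Purkinje cell gene, had 1.12 ± 0.23 RPKM in PAG and 0.157 ± 0.0891 in NAc.

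All 29 tested myelin and oligodendrocyte genes had log2 differences below 0, and 5 were called higher in PAG, 3 with the GC slope as a covariate and 8 with voom. Among all 15665 genes tested, 7426 had a log2 difference above 0. Mbp, myelin basic protein, had 228 ± 20.5 RPKM in PAG and 174 ± 30.5 in NAc and was not called. The kallikrein Klk6 of mature oligodendrocytes was called, with 9.43 ± 1.05 RPKM in PAG and 2.14 ± 0.3097 in NAc. At a fold of at least 1.5, 18 of the 29 were called, against 14.7% of all genes tested that were called higher in PAG at that fold. None of the 12 oligodendrocyte precursor genes was called; Tnr had 22.5 ± 3.9 RPKM in NAc and 21.8 ± 0.458 in PAG, with a 95% interval of the log2 difference from -0.19 to 0.24. All 21 tested microglial genes were above 0 on the log2 scale, of which 4 were called: Cd68 (11.6 ± 1.15 RPKM in NAc and 3.399 ± 0.105 in PAG), Fcrls (12.8 ± 1.03 RPKM in NAc and 5.402 ± 0.379 in PAG), C1qa (20.4 ± 4.67 RPKM in NAc and 8.88 ± 0.927 in PAG) and Tmem119 (6.05 ± 1.27 RPKM in NAc and 2.58 ± 0.354 in PAG). C1qa and Tmem119 were not called with the GC trend removed, which left 2 calls in the list, at log2 differences of 0.84 and 0.81. Voom called 6 of the 21 microglial genes. At a fold of at least 1.5, 16 of the 21 were called, against 13.4% of all genes tested that were called higher in NAc at that fold. With limma, none of 20 endothelial, 13 mural cell and 34 oxidative phosphorylation genes was called either; the unadjusted p was below 0.05 for 16, 8 and 28 of them, and for 8 of the precursor genes, against 75.7% of all genes tested. Voom on the recovered reads called 0, 1 and 0 of them, and 1 precursor gene. At a limma adjusted p below 0.05 without the fold, 14 endothelial genes were higher in PAG and 1 in NAc. These counts were 6 and 2 for mural cell genes, 22 and 5 for oxidative phosphorylation and 5 and 3 for precursor genes. Of all genes tested, 74.1% reached that adjusted p in either direction.

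Of 30 tested astrocyte genes, 8 were higher in PAG (26.7%, against 6.77% of all genes tested) and 2 in NAc (6.67%, near the 6.62% of all genes tested). Agt had 2.83 (lowest), 4.11 (median) and 6.83 (highest) RPKM in NAc and 52.5, 62.7 and 71.6 in PAG (log2 difference -3.75 ± 0.155 SE). Aqp4, the water channel of astrocyte endfeet, had 65.5 ± 3.29 RPKM in PAG and 22.3 ± 1.75 in NAc, and Itih3 60.8 ± 5.15 RPKM in PAG and 11.3 ± 4.78 in NAc. Fam107a was higher in NAc, with 101 ± 7.68 RPKM in NAc and 38.5 ± 3.82 in PAG, and Glul, glutamine synthetase, was not called (433 ± 22.8 RPKM in PAG and 392.4 ± 14.7 in NAc). Of 18 tested ependymal and motile cilia genes, 16 were higher in PAG and none in NAc, and 10 were when a mean of 2 RPKM was required. Tmem212 had 20.9 ± 1.87 RPKM in PAG and 0.4695 ± 0.626 in NAc, Ccdc153 20.4 ± 1.701 RPKM in PAG and 0.769 ± 0.704 in NAc, Dynlrb2, a dynein light chain, 15.3 ± 2.05 RPKM in PAG and 0.922 ± 0.666 in NAc and Ak7 11.1 ± 0.804 RPKM in PAG and 0.788 ± 0.428 in NAc. The exceptions were Drc1 (11.5 ± 1.21 RPKM in NAc and 8.04 ± 0.359 in PAG) and Ccdc39 (5.03 ± 0.451 RPKM in PAG and 4.45 ± 0.411 in NAc), which were not called. The summed RPKM of the list was 24.3 to 34.8 in NAc libraries and 128 to 153.5 in PAG libraries.

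Single libraries stood apart in choroid plexus and meningeal genes. Of 7 tested choroid plexus genes, 1 was higher in NAc and 3 in PAG (1 in PAG when a mean of 2 RPKM was required). Ttr, transthyretin of the choroid plexus, was listed at 748 RPKM in PAG library 27 and at 0.484 to 15.2 in the other PAG libraries, and was not called. Enpp2, which is made by oligodendrocytes and by choroid plexus, was at 261 RPKM in the same library and at 109 to 123 in the other PAG libraries, above all NAc libraries (45.8 to 59.9). Otx2, a factor of midbrain and choroid plexus, had 4.95 ± 0.986 RPKM in PAG and 0.393 ± 0.0932 in NAc, and was called higher in PAG. Clic6, a channel protein, was called higher in NAc with 7.35 ± 1.77 RPKM in NAc and 2.17 ± 2.11 in PAG. Fmod, fibromodulin of meningeal fibroblasts, was called higher in NAc with 4.73 ± 6.22 RPKM in NAc and 0.981 ± 0.179 in PAG, but NAc library 4 stood at 17.04 RPKM; without it the log2 difference was 0.73 and the gene was not called. Dcn, decorin, was called higher in PAG (7.75 ± 0.587 RPKM in PAG and 4.87 ± 5.15 in NAc), with a log2 difference of -1.01. Its call was lost without NAc library 1, 2, 5 or 6 or PAG library 25, and that of Fmod also without NAc library 3 or PAG library 25, 26, 27, 28 or 29.

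Immediate-early genes, which neurons switch on within minutes of activity, were higher in NAc for 17 of 29 tested genes and higher in PAG for 1, with a median log2 difference of 1.29. Egr3 had 10.5 (lowest), 13.5 (median) and 19.7 (highest) RPKM in NAc and 0.227, 0.343 and 0.512 in PAG (log2 difference 4.06 ± 0.13 SE). Nr4a1 had 23.9 ± 6.14 RPKM in NAc and 2.97 ± 0.6896 in PAG, Arc 18.2 ± 4.16 RPKM in NAc and 3.63 ± 0.5496 in PAG and Egr1 41.5 ± 5.77 RPKM in NAc and 9.07 ± 1.89 in PAG. Not all members were called. Jund had 7.67 ± 0.958 RPKM in NAc and 5.52 ± 0.321 in PAG and was not called, and Bdnf was the gene higher in PAG, with 4.17 ± 0.163 RPKM in PAG and 0.768 ± 0.508 in NAc. Fos, named here after its values were seen, had 5.27 ± 1.24 RPKM in NAc and 5.28 ± 1.63 in PAG, with a 95% interval of the log2 difference from -0.43 to 0.49. With the GC trend removed the count was 17, and 15 with the GC slope as a covariate.

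Of 38 tested ribosomal protein genes, 3 were called higher in NAc (7.89%, near the 6.62% of all genes tested) and none in PAG. They were Rpl36, Rplp1 and Rps29. Rpl36 stood at 10.8, 10.2, 23.6, 37.9, 40.4 and 60.7 RPKM in NAc libraries 1 to 6 and at 13.05, 7.795, 7.635, 4.18, 8.96 and 10.4 in PAG libraries 25 to 30. Rpl36-ps2, a processed copy of Rpl36, was called in the same direction; how reads that match both were counted is not given, so both values are uncertain. With a GC trend removed from each library, all 3 stayed called, at log2 differences of 1.20, 1.13 and 1.23. With the GC slope as a covariate, chosen after seeing the data, none of the 3 was called, at -0.15, 0.51 and 0.33. Rpl4, which was not called, had a log2 difference of -0.12.

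The contrast was then repeated in 6 NAc and 6 PAG libraries from mice with SNI, which the sham comparison did not use. There 2084 genes (13.3%) were called, 921 higher in NAc and 1163 higher in PAG. Of the 2098 genes called in sham libraries, 1861 were called again in the same direction, which is 88.7% of the sham calls and 89.3% of the SNI calls. The sign was the same for 2095 of 2098, and none was called in the opposite direction. Of the genes higher in NAc 862 of 1037 were called again, and of those higher in PAG 999 of 1061. Drd2 had a log2 difference of 2.70 in SNI libraries, Slc17a6 -5.58, Gata3 -3.53, Penk 3.65 and Tph2 -7.26, beside sham values of 2.56, -5.36, -3.18, 3.53 and -7.74.

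**Figure D5:**
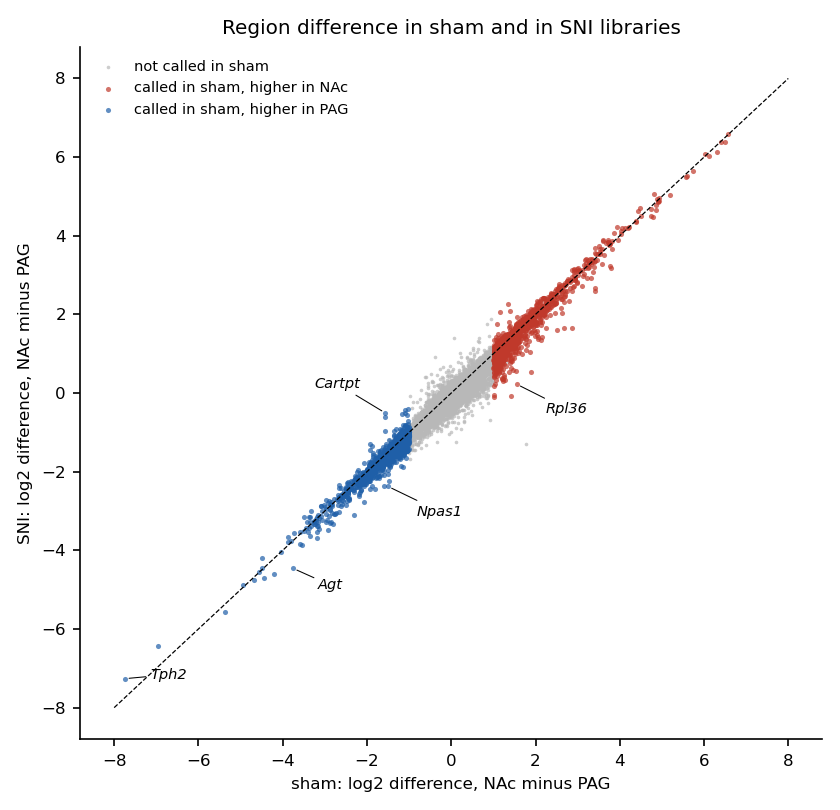
Log2 difference (NAc minus PAG) of each tested gene in sham libraries (x axis) and in SNI libraries (y axis); each point is a gene, the dashed line marks equal values, and colour shows the call in sham libraries. Called genes keep their side in 2095 of 2098 cases, and Rpl36 and Cartpt are among those that lie nearer to 0 in SNI libraries.

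Whether the region difference depended on surgery was tested as the interaction of region and surgery over 24 libraries. With limma, 0 of 15665 genes reached an adjusted p below 0.05 (lowest adjusted p = 0.325), and 1823 (11.6%) had an unadjusted p below 0.05, of which 200 were among the 2098 called genes (9.53% of them). A p that misses the threshold does not show that the differences are equal. Cartpt, the CART peptide precursor, was called in sham but not in SNI libraries and was chosen here after its values were seen, as were Chat and Ucn. It stood at 359.5, 64.2, 161, 138, 327 and 60.2 RPKM in PAG sham libraries 25 to 30, at 41.15 to 59.9 in NAc sham libraries, and its log2 difference was -1.56 in sham and -0.51 in SNI libraries. Without the 4 Slc17a7-rich NAc libraries the sham difference was -1.56 and was not called (limma adjusted p = 0.0603). The 2 PAG libraries with the most Cartpt, 25 and 29, also had the most Chat (5.45 and 6.16 RPKM, against 2.155 to 4.32 in the other 4) and Ucn, the urocortin gene (3.71 and 2.13, against 0.405 to 0.888). Rpl36 went from a log2 difference of 1.55 to 0.22, with a PAG mean of 8.67 RPKM in sham and 39.3 in SNI libraries.

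Promoter windows of 250 bases were matched by symbol in RefSeq for 672 of the 1037 genes higher in NAc, for 710 of the 1061 higher in PAG and for 10531 of all 15665 tested genes. The GC box GGGCGG (either strand) was in 57.7% of the first, 48.7% of the second and 58.7% of all tested windows. The TATA box TATAAA was in 8.78%, 9.30% and 6.18%, and AGATAA in 5.95%, 8.59% and 5.72%. TGACGTCA was in 2.38%, 2.25% and 2.81%. Of all 27025 windows of the table, 32.9% held GGGCGG, 12.97% TATAAA, 10.25% AGATAA and 1.62% TGACGTCA. In the order above, the windows held a median of 14, 11 and 16 CpG dinucleotides. These shares are descriptions and were not tested.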

How the data were processed

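RNA was measured in 12 sham libraries, 6 from NAc and 6 from PAG, grouped by their labels. The deposited values are RPKM per gene in a table of 31554 genes and 36 libraries; TopHat2 and HTSeq were used with the mm10 build, per the submitters' processing notes, and versions, settings and strand handling are not given. RPKM times gene length gave whole reads for 100% of values (within 0.001), from which the depth was taken. The 15665 genes whose mean over the 12 libraries reached 0.5 RPKM were tested with limma 3.58.1 (R 4.3.3, trended empirical Bayes) on log2(RPKM + 0.5), with Benjamini-Hochberg adjustment over all of them; a call needed an adjusted p below 0.05 and a fold of at least 2. As an alternative, voom on the recovered reads called 2736 genes. Of 995 genes in 47 lists, 980 were in the table and 853 were tested. The members and lists were chosen with earlier results of these data known. Named genes are the 15 largest log2 differences and 10 largest RPKM differences per direction, and per list up to 5 called genes per direction and 2 others; genes outside this rule were chosen after their values were seen (Drd4, Hoxd1, Rpl36-ps2 and those so described). Some genes that the rule names are not reported here. GC content and positions came from GENCODE M21 (97.9% of genes matched). No 2 libraries of a group differed by as little as sampling noise (lowest chi-square per degree of freedom 4.12 over 30 pairs).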

Additional observations from a re-analysis of the deposited data

Results flagged for a closer look

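Within a group of 6 libraries, 1 library lay apart from the other 5 by Dixon's criterion for 26 of 423 combinations (6.15%). Each combination was a gene named in the text, or the depth, in a region. For independent normal values chance gives about 1 in 20. The genes were not a random choice and several were flagged in the same library, so the share was not tested against chance. The library NAc 2 stood apart with Glra2 at 11.98 (7.22 to 8.84 in the others), Itih3 at 20.9 (8.03 to 11.1 in the others), Nap1l5 at 183 (123 to 145 in the others), Oprl1 at 17.3 (14.2 to 15.2 in the others), Resp18 at 68.96 (38.2 to 48.8 in the others), Rxfp3 at 0.822 (0.364 to 0.522 in the others) and Slc6a11 at 75.7 (43.4 to 54.8 in the others) RPKM. The library NAc 4 stood apart with Adra1a at 1.93 (2.72 to 2.98 in the others), Dcn at 14.997 (1.76 to 5.53 in the others) and Fmod at 17.04 (1.14 to 5.22 in the others) RPKM. The library NAc 6 stood apart with Hapln2 at 5.44 (3.35 to 4.13 in the others) RPKM. The library PAG 25 stood apart with Adra2a at 5.78 (5.17 to 5.38 in the others) and Ddn at 2.92 (1.75 to 2.097 in the others) RPKM. The library PAG 27 stood apart with Clic6 at 6.48 (1.16 to 1.44 in the others), Drc1 at 8.74 (7.73 to 8.03 in the others), Enpp2 at 261 (109 to 123 in the others), Otx2 at 6.87 (4.24 to 4.94 in the others) and Ttr at 748 (0.484 to 15.2 in the others) RPKM. The library PAG 28 stood apart with Adcy5 at 20.1 (22.7 to 23.99 in the others), C1qa at 7.06 (8.99 to 9.598 in the others), Cd68 at 3.198 (3.404 to 3.501 in the others), Foxp2 at 3.06 (2.62 to 2.77 in the others), Grik1 at 8.23 (7.58 to 7.82 in the others), Nmbr at 0.613 (0.803 to 0.88 in the others) and Sema5a at 14.7 (13.03 to 13.4 in the others) RPKM. The library PAG 29 stood apart with Drd5 at 1.15 (1.36 to 1.48 in the others) RPKM. PAG library 27 was also the one with the highest summed choroid plexus genes, and NAc library 4 the one with the highest summed fibroblast and meningeal genes; their part in these values was not tested.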

How the results depend on the processing

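The main count of 2098 called genes was between 1520 and 2736 under the other normalizations, pseudocounts, filters and models, and between 2064 and 2172 when any 1 library was left out. It was 4415 at a fold of at least 1.5 and 502 at 4. The genes higher in NAc numbered 1011 to 1068 with 1 library left out, 2106 at a fold of 1.5 and 289 at 4. Those higher in PAG numbered 1022 to 1104, 2309 and 213, and 695 when a mean of 2 RPKM was required. With median-of-ratios scaling, which moved the median of all genes by 0.064, 1122 were higher in NAc and 963 in PAG. The calls repeated in SNI libraries were 3747 and 466 at these folds. The called genes of the lists, 358 in all, were 352 to 364 with 1 library left out and 152 at a fold of 4; the genes chosen by the naming rule, 245 called, were 237 to 244 and 124. No called gene had an interaction of region and surgery at an adjusted p below 0.05 under the 6 pseudocounts, filters and normalizations tried. The depth difference was 13.29 to 17.86 M reads. The GC slope covariate was chosen after seeing the data; it left 2005 called genes and ended 3 ribosomal calls, and with it Rpl36 had a log2 difference of -0.15. Jund, not called, was at -0.23 with the GC trend removed. Leaving the folds aside, 24 alternatives were tried. Of 197 called genes named in the text, 168 stayed called in the same direction under each alternative in which they were tested. Genes with a mean under 2 RPKM were left out where that mean was required. Besides those named in the report with such a change, Maoa, Grik1, Htr2a and Unc5d were not called with the GC slope covariate, Acan, Gal, Ppp1r17, Napepld and Htr1f not with a pseudocount of 1, and Scn9a, Glra4, Dcn and Ndrg2 not under several alternatives. Without NAc library 4, Adrb1, Calcr, Tacr3, Rxfp3, Glra4, Fmod and Ndrg2 were not called; the cause was not tested. No paired analysis was possible because the groups share no replicate number in the labels; whether they share mice is not given. Depth limits the genes under 0.5 RPKM, which were not tested.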

Other observations

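Pituitary hormone genes, which neither region is known to make at high levels, were uneven between libraries. Gh (growth hormone) stood at 71.6 RPKM and Prl (prolactin) at 31.2 in NAc library 1. The other NAc libraries had Gh from 0.0203 to 10.03 RPKM, and the PAG libraries from 0.0324 to 3.69. Pomc, the proopiomelanocortin precursor, stood at 40.4 RPKM in NAc library 3 and at 12.5 in PAG library 26. These genes were chosen after their values were seen.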
